A study of Mus musculus with 3 samples.

Results

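The genes that encode the subunits of glutamate and GABA receptors were read in ChIP-seq of the cerebral cortex of mouse embryos at E13.5, to see which of them already carried H3K4me3 at their start sites and which were bound by NF-Y. The genes were chosen by symbol alone from the GENCODE M21 annotation. They were the protein-coding genes whose symbols start with Gria, Grik, Grid or Grin and a number, or read Grm and a number, or Gabr and a subunit letter, which gave 46 of 21951 protein-coding genes. Of these, 18 encode ionotropic glutamate receptors, 8 metabotropic glutamate (mGlu) receptors and 19 GABAA receptor subunits. The remaining one, Grid2ip, encodes a protein that binds a delta receptor and is not itself a receptor, but its symbol fits the rule.

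Cortices of E13.5 embryos were fixed, sheared and split into an input and precipitates of an antibody against NF-YC (NF-Y-ChIP) or against H3K4me3 (H3K4me3-ChIP). Each of the 3 libraries was made once, and the labels give neither strain, genotype, sex nor the number of embryos pooled. A peak list of NF-Y-ChIP (733 peaks) and one of H3K4me3-ChIP (18816 peaks) were used, and the input has no list of its own here. Since each antibody was used once, replicate error is unknown. Every value below describes these lists, and no difference was tested.

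Glutamate excites neurons through ionotropic receptors, which are cation channels (AMPA, kainate, NMDA and the related delta receptors), and tunes them through G-protein-coupled mGlu receptors. GABA acts on GABAA receptors, chloride channels assembled from several kinds of subunit, whose current is often depolarising in immature neurons because their internal chloride is high. In the cortex at this stage most cells are dividing progenitors and young neurons, and most synapses form later. H3K4me3, trimethylation of lysine 4 of histone H3, sits at the first nucleosomes of active genes, and at CpG-rich promoters it can also sit together with the repressive mark H3K27me3 at genes that are silent but poised. It therefore marks a start site as open for use and is no measure of transcript level. NF-Y is a trimer of NF-YA, NF-YB and NF-YC that binds the motif CCAAT in promoters.

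The start sites differed widely in sequence. Examples of high and low CpG content upstream of the annotated gene 5′ end are printed here, since the mark was read against this feature. The ratio of observed to expected CpG within 500 bp of the 5′ end was highest at Grin1 (0.975) and Grik3 (0.929), and Grin2d (0.087) was among the lowest. Each line holds the 150 bases upstream of the start on the gene's own strand, read from the RefSeq copy of GRCm38, with every CpG in capitals. The stretch of Grin1 (chr2:25319188-25319337, minus strand) has 23 CpGs and that of Grik3 (chr4:125490550-125490699, plus strand) has 25, and both lay inside an H3K4me3-ChIP peak. That of the Grin2d 5′ end (chr7:45878379-45878528, minus strand) has 1 and lay in no peak.
Grin1: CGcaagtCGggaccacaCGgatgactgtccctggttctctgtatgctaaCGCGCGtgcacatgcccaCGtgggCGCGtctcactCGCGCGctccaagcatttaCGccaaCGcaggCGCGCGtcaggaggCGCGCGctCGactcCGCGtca
Grik3: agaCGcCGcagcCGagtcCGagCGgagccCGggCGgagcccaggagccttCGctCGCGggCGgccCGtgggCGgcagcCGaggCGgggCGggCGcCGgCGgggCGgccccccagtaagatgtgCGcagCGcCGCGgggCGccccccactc
Grin2d, gene 5′ end: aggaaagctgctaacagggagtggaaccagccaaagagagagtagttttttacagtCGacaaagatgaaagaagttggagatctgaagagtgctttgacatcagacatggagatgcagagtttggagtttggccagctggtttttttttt
Grin2d has another start further inside the gene, that of transcript Grin2d-201, and the mark lay there. The 150 bases upstream of it (chr7:45867130-45867279, minus strand) have 3 CpGs, and the peak began 130 bp downstream of the start. It was chosen after the values were seen.
Grin2d, transcript Grin2d-201: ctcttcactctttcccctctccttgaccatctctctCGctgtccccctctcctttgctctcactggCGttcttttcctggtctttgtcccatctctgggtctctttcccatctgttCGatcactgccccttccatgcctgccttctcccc

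A second kind of sequence bears on neuronal genes. RE1 is the element bound by REST, a repressor that keeps neuronal genes silent in other cells. Its core was searched as CAGCACC and GGACAG with any 2 bases between them, on both strands, within 1000 bp of every transcription start site (TSS). Exact matches were found at 3 of the 46 genes (6.52%, Wilson 95% interval 2.24 to 17.5%), against 0.410% of all protein-coding genes (90 genes). All 3 matches lay inside H3K4me3-ChIP peaks. That of Grin1 (chr2:25319015-25319035, minus strand) lay 70 bp downstream of the nearest TSS. A shorter core, GCACC and GGACAG with the same gap, added Gria2 (chr3:80802990-80803008, minus strand, 164 bp upstream), also inside a peak, which made 4 genes against 0.856% of all. A match of letters does not show that REST was bound. Each line gives the match on the gene's strand, with the core in capitals.
Grin1: cttCAGCACCTCGGACAGcac
Gria2: gcgCTGTCCGCGGTGCtaa

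H3K4me3 was present at nearly all of the receptor genes, though at most of them the peak was weak. A peak within 1000 bp of a TSS was found at 40 of the 46 genes (87.0%, Wilson 95% interval 74.3 to 93.9%), against 62.7% of all protein-coding genes. The interval covers counting only, as the genes share 1 library. When only peaks at or above the median fold enrichment of the list were counted, 16 of the 46 genes had one (34.8%, interval 22.7 to 49.2%). Of all protein-coding genes 45.1% had one, a share inside that interval, so no excess was left. All 8 mGlu receptor genes and 17 of 18 ionotropic glutamate receptor genes had a peak, against 14 of 19 GABAA subunit genes. The 6 genes without one were the NMDA subunit Grin2c and the GABAA subunits Gabra6, Gabrp, Gabrr1, Gabrr2 and Gabrr3. Since the cortex was taken whole, a mark in few cells and a weak mark in all cells cannot be told apart.

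Strength was read as the MACS2 fold enrichment at the summit of the strongest peak near a TSS, the ratio of the ChIP signal to the local background. Over the 40 marked genes its median was 21.4 (middle 50%, 14.6 to 30.8), against 39.9 (25.7 to 52.7) over the 13767 marked protein-coding genes. The median receptor gene stood at percentile 19.1 of all marked genes. Of the 40, 36 were below the median of all marked genes and 22 were in the lowest 25%, while 4 were at or above the median and 1 was in the highest 25%. The weak end therefore held most of the receptor genes, and a few GABAA subunits and the AMPA subunit Gria2 stood clear of it.

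**Figure D1:**
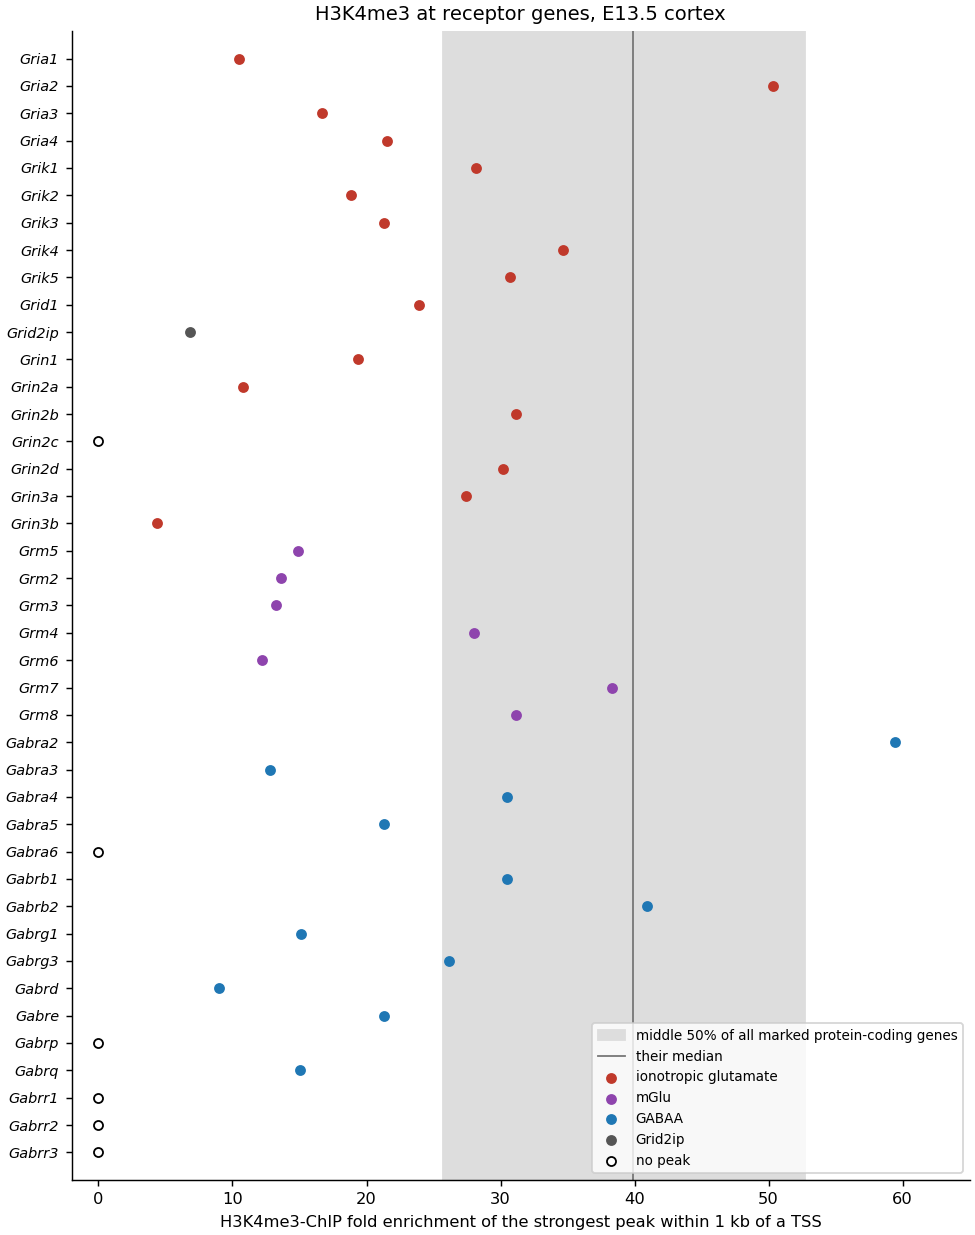
H3K4me3-ChIP fold enrichment (horizontal axis) of the strongest peak within 1 kb of a TSS for each receptor gene named in the text, coloured by receptor class, with open circles at 0 for the 6 genes without a peak. The grey band is the middle 50% of all marked protein-coding genes and the line is their median, 39.9, which Gabra2, Gria2 and Gabrb2 reach.

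Among the AMPA receptors, which carry most fast excitation, one subunit stood apart. Gria2, whose product makes the channel impermeable to calcium once its transcript is edited, had a fold enrichment of 50.3 (percentile 70.8) in a single peak of 3299 bp, the widest total span of the 40 genes. Its summit was 1489 bp downstream of the nearest TSS, farther than in any other marked gene. Gria4 (21.6) and Gria3 (16.7) had single peaks of 2383 and 2388 bp, as wide as many strong promoters but much lower. Gria1 was the weakest of the family, with 4 separate small peaks of fold enrichment 5.58, 10.5, 5.54 and 4.58 over its start region. Thus all 4 AMPA genes were marked, from 10.5 to 50.3 at their strongest peaks.

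The 5 kainate receptor genes, whose products act both before and after the synapse, lay closer together. Grik4, which encodes a high-affinity subunit, had the highest fold enrichment (34.7), and Grik5, the other high-affinity subunit, had 30.7. Grik1 (28.1), Grik3 (21.3) and Grik2 (18.8) encode the low-affinity subunits, which can form channels alone. Grik2 was marked at separate start regions, with 18.8 at its 5′ end and 16.2 at the start of Grik2-202, 5475 bp further in. The Grik5 peak also lay within 1000 bp of a start of its neighbour Zfp574, so its mark cannot be assigned to Grik5 alone.

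The delta receptors are built like glutamate receptors but bind the synaptic organiser cerebellin. Grid1 had a fold enrichment of 23.9 in a peak of 2414 bp. Grid2ip was far weaker, with 6.80 at Grid2ip-201 and 5.38 at Grid2ip-203 and no peak at the gene 5′ end.

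The NMDA receptors, which need both glutamate and glycine to open, spanned from no mark to a moderate one. Grin1, the subunit that every NMDA receptor contains, had 16.9 at its 5′ end. A second peak of 19.4 lay 14025 bp further in, where only processed transcripts (Grin1-212 and Grin1-213) start. Grin2b, the partner subunit that dominates in the embryonic forebrain, had 31.1, the highest of the family. Grin2d, another early subunit, had 30.2 and Grin3a, which lowers calcium entry, had 27.4. Grin2a, which replaces much of Grin2b after birth, had 10.8 in a peak of 2874 bp, so the mark was low but as wide as at Grin2b (2942 bp over 2 peaks).

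The remaining NMDA genes were at the bottom of the list. Grin3b, mainly known from motor neurons, had the weakest and narrowest mark of all 40 genes, a fold enrichment of 4.34 over 193 bp with a −log10 q of 4.53. Grin2c, typical of the adult cerebellum, had no peak within 9113 bp of a TSS. It had a peak of 15.4 in its last exon, 1178 bp from its 3′ end, where no TSS of any annotated gene lay within 2931 bp.

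The mGlu receptors are grouped by coupling and sequence. Of group I, which couples to phospholipase C, Grm5 had a low value of 14.9. Group II (Grm2 and Grm3), which lowers cyclic AMP and often sits before the synapse, had 13.6 and 13.2. Group III reached higher, with 38.3 at Grm7, 31.2 at Grm8 and 28.0 at Grm4, but 12.2 at Grm6, the receptor of retinal ON bipolar cells. Grm2, Grm3, Grm5 and Grm6 thus lay close together, and each was below Grm4, Grm7 and Grm8. The family median of 14.2 was below that of the ionotropic glutamate receptors (23.9) and the GABAA receptors (23.7), whose ranges overlapped it.

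The GABAA alpha subunits, which with the gamma subunit form the benzodiazepine site, held the strongest mark. Gabra2 had a fold enrichment of 59.4 (percentile 84.6) over 1923 bp, with its summit 227 bp upstream of the gene 5′ end. Gabra4 had 30.4, in a peak shared with Gabrb1. Gabra5, of extrasynaptic receptors, had 21.3 and Gabra3 had 12.8. Gabra6, a subunit of cerebellar granule cells, had no peak nearer than 98.5 kb.

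The beta subunits are part of every common GABAA receptor and bind GABA together with alpha. Gabrb2 had 41.0 (percentile 52.2) over 2159 bp, with its summit 643 bp downstream of the nearest TSS. Gabrb1 had 30.4. The gamma subunits, needed for clustering at synapses, had 26.2 at Gabrg3 and 15.1 at Gabrg1.

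Of the remaining GABAA subunits, Gabre (epsilon) had 21.3, Gabrq (theta) had 15.0 and Gabrd (delta, of extrasynaptic receptors) had 9.02 over 404 bp. Gabrp (pi), found mostly outside the brain, had no peak within 64.9 kb. The rho subunits, which form the slow GABA channels of the retina, were the only family with no mark at all. The nearest H3K4me3-ChIP peak was 30.7 kb away for Gabrr2, 56.1 kb for Gabrr1 and 64.3 kb for Gabrr3.

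Most GABAA genes sit in clusters that mix the subunit types, and the mark was read along those on chromosomes 5, X and 4. The cluster on chromosome 5 spans 1398 kb and holds Gabrg1, Gabra2, Gabra4 and Gabrb1. It had 4 H3K4me3-ChIP peaks, every one of them at a start of a receptor gene. The cluster on the X chromosome (587 kb, with Gabre, Gabra3 and Gabrq) had 3 peaks, 1 per gene. The pair Gabrr2 and Gabrr1 on chromosome 4 (101 kb) had none. Within these 3 stretches, including 1000 bp to each side, no peak lay away from the receptor starts, and no NF-Y-ChIP peak was found.

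Inside the cluster on chromosome 5, Gabra4 and Gabrb1 start head to head and overlap by 196 bp. They shared a single peak of 1327 bp (chr5:71657278-71658604) with a fold enrichment of 30.4, so this value counts for both and cannot be divided between them. Gabrb1 had a peak of its own at the start of Gabrb1-201, 41819 bp downstream of the gene 5′ end, with 29.2 over 1550 bp.

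Fold enrichment and width gave different pictures. The summed width of the peaks near a TSS had a median of 1555 bp (middle 50%, 1236 to 2370 bp), against 1493 bp (1081 to 2016 bp) over all marked genes. Thus 21 of the 40 receptor genes were at or above the median width, while 4 were at or above the median fold enrichment. In 17 of the 40 (42.5%, Wilson 95% interval 28.5 to 57.8%) the fold enrichment was below and the width at or above the median of all marked genes, as in 17.5% of all marked genes. The opposite, a high but narrow mark, was seen in 0 of the 40, which allows a share of up to 8.76%, and in 17.5% of all marked genes. Since only 4 of the 40 reached the median fold enrichment, both shares partly restate the low fold enrichment. Grin2a, Grik2, Grik3, Gria3 and Gria4 were among the wide and low genes.

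**Figure D2:**
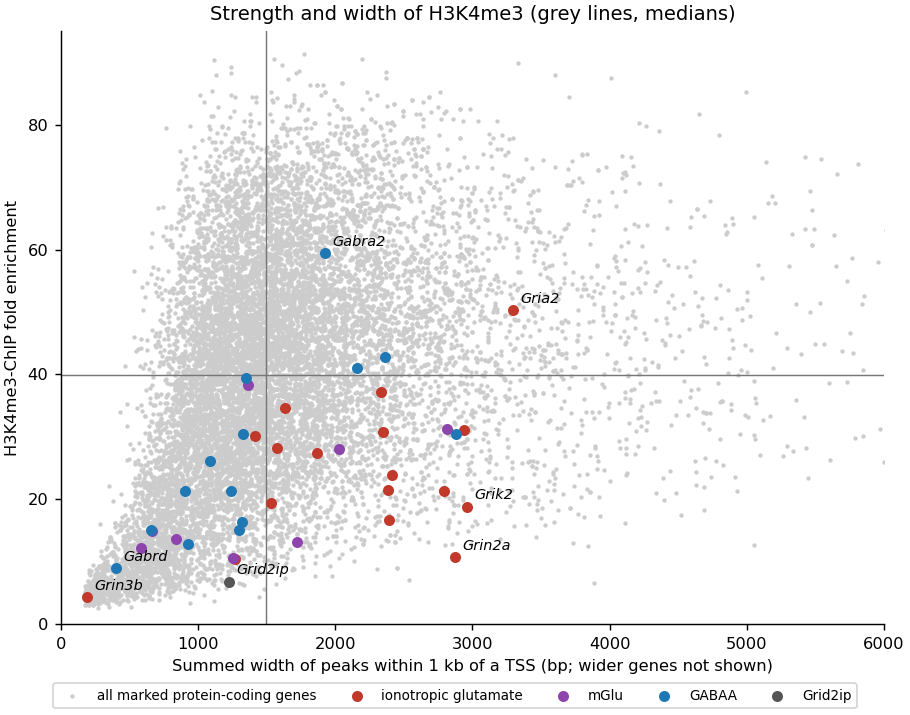
Fold enrichment of the strongest peak (vertical axis) against the summed width of peaks within 1 kb of a TSS (horizontal axis, bp) for the 40 marked receptor genes, coloured by class, over all marked protein-coding genes in grey. Grey lines are medians of all marked genes, 72 genes wider than 6000 bp are not drawn, and no receptor gene lies in the upper left quadrant.

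The position of the mark was read against the annotated starts, and the 1000 bp rule fixes part of it. The strongest summit was a median of 132 bp downstream of the nearest TSS, within 500 bp of it in 33 of the 40 genes and downstream of it in 26. The 33 are 82.5% (Wilson 95% interval 68.1 to 91.3%), against 91.7% of all marked protein-coding genes. A single peak was seen in 32 genes and 2 or more in 8, and 138 of the 202 annotated TSSs of the 46 genes had a peak within 1000 bp. In 36 of the 40 genes the gene 5′ end itself was marked (90.0%, interval 76.9 to 96.0%), against 94.2% of all marked protein-coding genes, a share inside that interval.

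**Figure D3:**
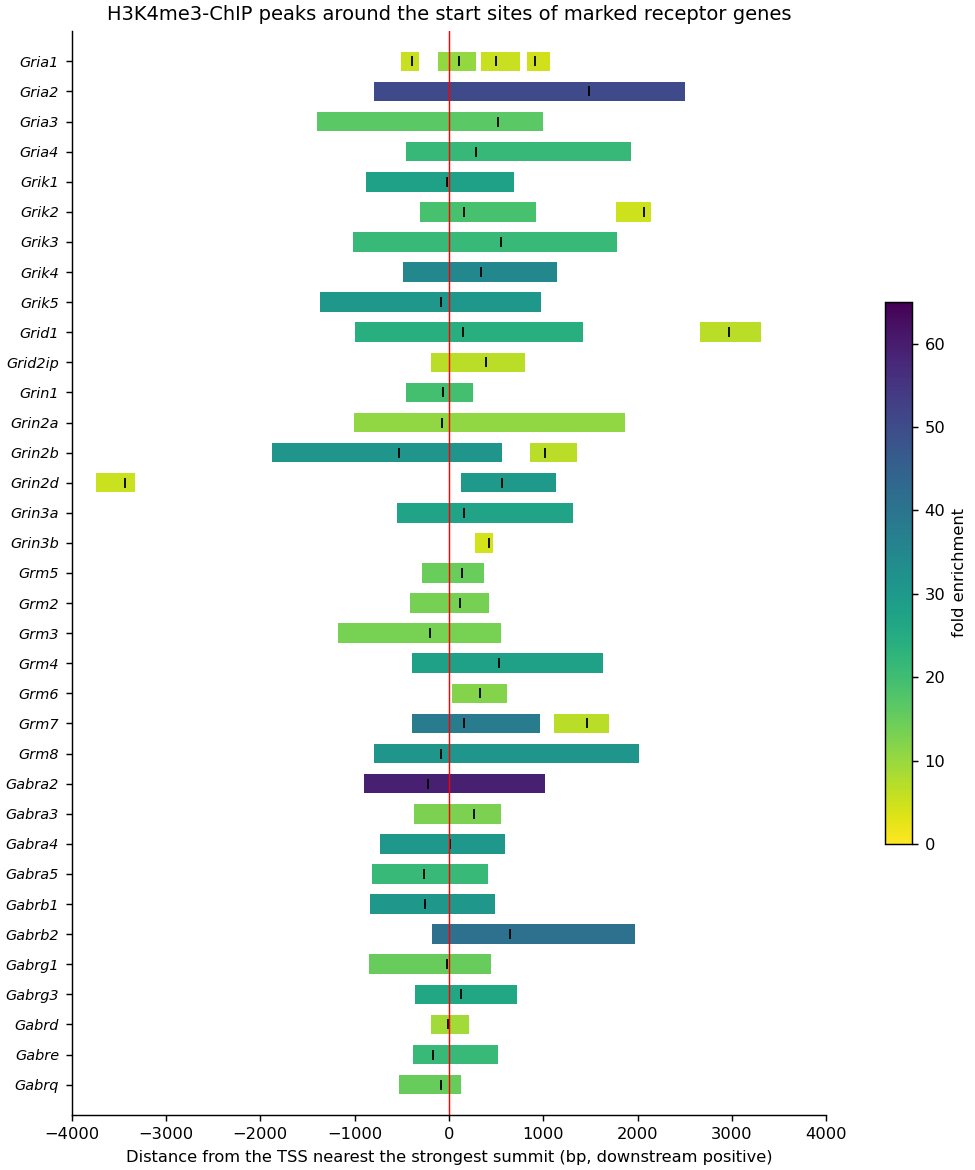
H3K4me3-ChIP peaks of the marked genes named in the text within 4000 bp of the TSS nearest to the strongest summit (distance in bp, downstream positive), coloured by fold enrichment, with a tick at each summit. Most summits sit just downstream of the TSS, Gria1 is split into 4 small peaks, and the summit of Gria2 is 1489 bp downstream.

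In 4 genes the mark lay only at an alternative start, among them Grin2d, Grm4 and Grid2ip. In Grin2d, the 5′ end at Grin2d-202 had no peak, and the fold enrichment was 30.2 at Grin2d-201 and 5.17 at Grin2d-203. The Grin2d-201 peak began 130 bp downstream of that start, and the summit was 11814 bp from the gene 5′ end. These are the starts printed above, with 1 and 3 CpGs in the 150 upstream bases. In Grm4 the peak of 28.0 covered the starts of Grm4-201, Grm4-205 and Grm4-208, 8524 bp from the 5′ end of Grm4-206.

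Outside the starts, 18 peaks in 12 of the genes or at their ends lay more than 1 kb from any TSS of the gene. Of these 17 had their summit inside the gene, and the other lay past the 3′ end of Grin2d, 145 bp from a start of Grwd1. Another gene's TSS lay within 1 kb of the summit in 6 of the 18, as in the introns of Grin2d, where the peak of 42.5 lay 35 bp from a start of Kdelr1. Of the 18, 7 peaks in 6 genes had their summit in a last exon of the gene. They included those in Grin2c (15.4), Grm5 (12.2), Grik4 (8.41), Grik5 (6.10) and Grin2d (4.96 and 3.92), of which that in Grik4 and both in Grin2d were within 500 bp of the TSS of a non-coding gene. The peaks in Grm5 and Grin2c were 11195 and 2931 bp from the nearest TSS of any other gene. Their CpG ratios were 0.69 and 0.85. Of the peaks in introns, the highest with no other TSS within 1 kb was 21.5 in Grik4.

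CpG content was read beside the mark. The ratio of observed to expected CpG within 500 bp of the gene 5′ end had a median of 0.534 in the 40 marked and 0.214 in the 6 unmarked genes, against 0.721 and 0.180 over all protein-coding genes with and without a peak. The marked receptor genes were thus poorer in CpG than marked genes at large. Above a ratio of 0.6, a common limit for CpG islands, 17 of 18 receptor genes were marked, the exception being Grin2c (0.710), against 97.0% of all such genes. Below it, 23 of 28 were marked (82.1%, Wilson 95% interval 64.4 to 92.1%), against 33.5% of all such genes. With the ratio taken at each gene's most CpG-rich TSS, 16 of 21 genes below the limit were marked (76.2%), against 24.9% of all such genes. On that scale the lowest marked gene was Gabra3 (0.295), and 5 of the 6 unmarked genes lay below it, at 0.273 or less, with Grin2c the exception. This comparison was chosen after the values were seen.

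The fold enrichment of the marked receptor genes was low on both sides of this limit. At ratios of 0.6 or more its median was 26.2 over 17 receptor genes, against 44.2 over all marked genes. Below 0.6 it was 16.7 over 23 receptor genes, against 26.8. Grin1, with the highest ratio, had a fold enrichment of 16.9 at its 5′ end.

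**Figure D4:**
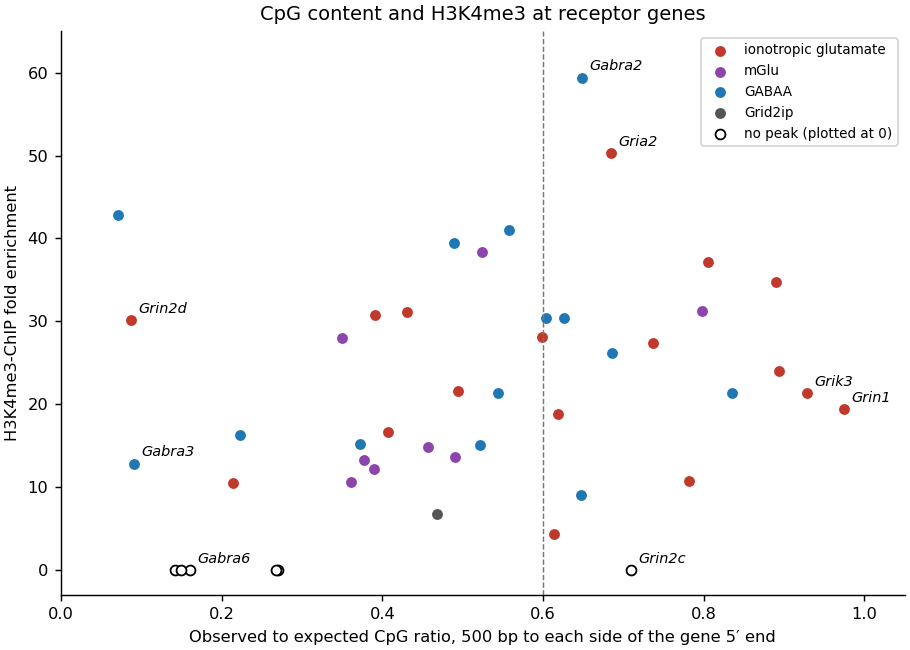
Observed to expected CpG ratio within 500 bp of the gene 5′ end (horizontal axis) against H3K4me3-ChIP fold enrichment (vertical axis) for the 46 genes, with open circles at 0 for unmarked genes and a dashed line at 0.6. Of the 6 unmarked genes 5 lie at 0.270 or below, Grin2c lies at 0.710, and Grin2d at the far left is marked at alternative starts only.

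The receptor genes were also long. Marked receptor genes had a median length of 216 kb and unmarked ones 29.6 kb, against 26.1 and 8.32 kb over all protein-coding genes with and without a peak. All 25 receptor genes of 100 kb or more were marked, as were 88.2% of all protein-coding genes of that length, and 15 of 21 shorter ones. In the long genes the median fold enrichment was 26.2 over the 25 receptor genes, against 38.9 over all marked genes of that length.

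No receptor gene had NF-Y at its start. An NF-Y-ChIP peak within 1000 bp of a TSS was found at 0 of the 46 genes (a share of up to 7.71% by the Wilson 95% interval), against 3.20% of all protein-coding genes (702 genes). The interval includes 3.20%, so a share lower than in other genes was not detectable with 46 genes. When a peak anywhere inside the gene or within 5 kb upstream was counted, 1 gene had one (Grik5), against 3.69% of all genes. This peak (chr7:25077010-25077231, fold enrichment 8.33) lay 4664 bp from the nearest Grik5 start and 79 bp from a start of Zfp574, a zinc finger gene.

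The other NF-Y-ChIP peaks nearest to receptor genes also lay at starts of other genes. They were 9.90 kb from Grin2c at Fdxr, 18.2 kb from Grin2d at Syngr4, 34.1 kb from Grin1 at Tprn and 79.0 kb from Grin3b at Gpx4. These were 1 to 159 bp from those other starts, and all lay in H3K4me3-ChIP peaks. The next was 307 kb away, from Gabrd. Over the 46 genes the median distance was 1723 kb, with 34 genes beyond 1000 kb, against a median of 851 kb over 21768 protein-coding genes on chromosomes with a peak.

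The motif of NF-Y was searched at the same starts. CCAAT or ATTGG, its reverse complement, stood from 250 bp upstream to 50 bp downstream of a TSS in 32 of the 46 genes (69.6%, interval 55.2 to 80.9%), against 61.9% of all protein-coding genes, which lies inside the interval. It stood within the 100 bp upstream of a TSS in 15 genes (32.6%), against 38.1%. All 15 genes were marked by H3K4me3, against 6020 of the 8359 protein-coding genes with the motif there, and none had an NF-Y-ChIP peak. In Gabra2, Gabra3, Grik2, Grin3b, Grm2 and Grm6 the motif itself lay outside the H3K4me3-ChIP peaks. Over all marked genes with the motif within 100 bp upstream, 9.98% had an NF-Y-ChIP peak, and 0 of 15 allows a share of up to 20.4% by the Wilson 95% interval, which includes it. The examples shown here lay inside H3K4me3-ChIP peaks, on GRCm38, with the motif in capitals. In Grm8 (chr6:28135250-28135274, minus strand) the motif was centred 84 bp upstream of a TSS. In Gria3 (chrX:41400797-41400821, plus strand) it was centred 45 bp upstream, overlapping its own reverse complement, which was centred 42 bp upstream.
Grm8: gtgcgaagcgATTGGtgatcccggg
Gria3: ccctaccggcCCAATtggaagaacc

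Most genes that act with the receptors carried the mark as well. Of 63 further genes of glutamate and GABA transmission, 61 had an H3K4me3-ChIP peak near a TSS (96.8%), against 62.7% of all protein-coding genes, with a median fold enrichment of 31.2. The exceptions were Slc6a13, a GABA transporter of the meninges, and Slc17a8, a vesicular glutamate transporter. At or above the median fold enrichment of all marked genes were 19 of these 61, against 4 of the 40 receptor genes. The lowest 25% held 22 of the 61 and 22 of the 40.

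By role, all 14 auxiliary subunits of AMPA and kainate receptors were marked, with a median of 28.5. All 18 scaffolds of the excitatory synapse (median 37.4) and all 7 proteins of the inhibitory synapse (median 44.9) were marked. Homer1, which links group I mGlu receptors to the scaffold, had 65.9, and Clptm1, which holds back GABAA receptors in the cell, had 60.0. The 2 chloride cotransporters were marked, with 43.5 at Slc12a2, which brings chloride in, and 18.9 at Slc12a5, which takes it out. Of the 16 genes of transmitter synthesis and transport 14 were marked, among them Slc17a6 (15.4), a vesicular glutamate transporter, and Glul (60.7), which makes glutamine from glutamate. The other receptors in the lists, 6 GABAB and glycine receptor genes, had a median of 19.1, from 4.75 at Glra2 to 50.2 at Gabbr1.

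NF-Y-ChIP peaks lay near a TSS in 3 of these 63 genes (4.76%, Wilson 95% interval 1.63 to 13.1%), a share close to the 3.20% of all protein-coding genes. They included Abat, which breaks down GABA (fold enrichment 10.9), and Cacng7, an AMPA receptor auxiliary subunit (8.33). No other gene started within 1 kb of a TSS of either.

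**Figure D5:**
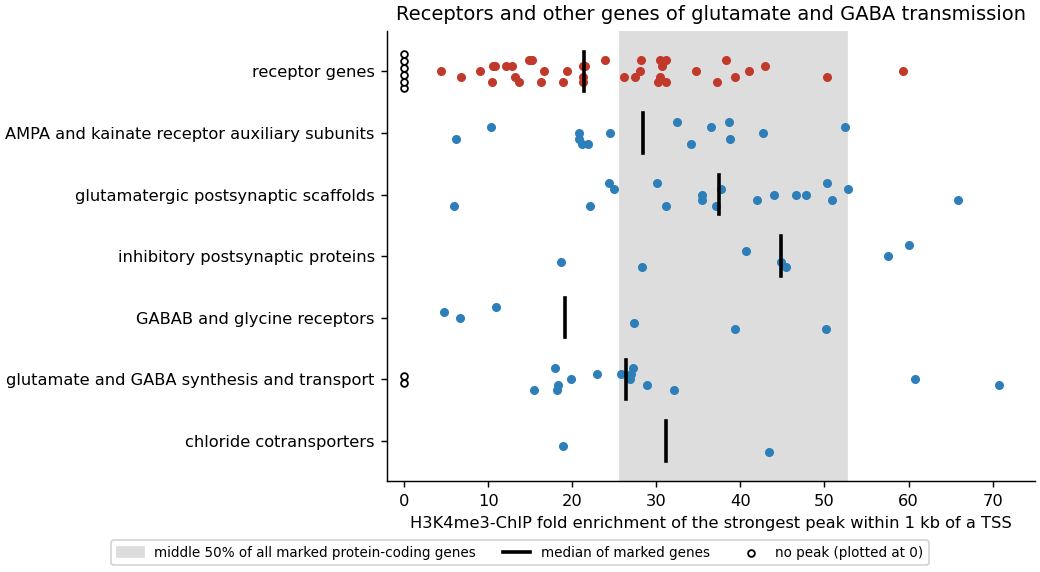
H3K4me3-ChIP fold enrichment (horizontal axis) of the strongest peak within 1 kb of a TSS for the receptor genes and 6 lists of genes that act with them, 1 point per gene, with open circles at 0 for unmarked genes, a bar at the median of marked genes and a grey band for the middle 50% of all marked protein-coding genes. Receptor genes have a median of 21.4, and the inhibitory postsynaptic proteins have the highest median, 44.9.

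The tissue was checked with marker genes. H3K4me3-ChIP peaks lay at 8 of 8 genes of cortical progenitors, 7 of 7 of neurons and 5 of 5 of interneurons. They lay at 2 of 5 genes of endothelial cells, 1 of 4 of red blood cells, 1 of 4 of meninges, 0 of 5 of microglia and 0 of 6 of other organs. Over all lists 24 of 44 were marked (54.5%), against 62.7% of all protein-coding genes. How the mark at the receptor genes was divided among these cell types was not tested.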

How the data were processed

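ChIP-seq of E13.5 mouse cortex gave an input, an NF-Y-ChIP and an H3K4me3-ChIP library, 1 of each. Reads were checked with FastQC, trimmed with Trimmomatic, aligned to mm10 (GRCm38) with Bowtie2 2.2.8 and peaks called with MACS2 2.1.2 by the authors, at p-values under 0.001 (NF-Y-ChIP) and q-values under 0.05 (H3K4me3-ChIP). The versions come from the submitters' processing notes, and the study names an input as its negative control without saying whether MACS2 used it. The 2 deposited lists hold, per peak, a fold enrichment (ratio of signal to local background at the summit), a −log10 p and q, a score and the summit offset. The score deposited by the authors is 10 times the −log10 q rounded down for H3K4me3-ChIP and 10 times the −log10 p for NF-Y-ChIP, which with the thresholds told the lists apart. The number of peaks matched the study's own for NF-Y-ChIP only. The lists hold no read counts, so depth is unknown, and what is called a peak depends on it.

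TSSs were the 5′ ends of all GENCODE M21 transcripts of a gene, and a gene was marked where any base of a peak lay within 1000 bp of one. Percentiles are among all marked protein-coding genes. Shares have Wilson 95% confidence intervals, which cover counting only. CpG ratios and motifs were read from the GRCm38 sequence. The genes and lists were chosen with earlier results of these data known. Every gene of the symbol rule is counted and is named, except a few that are not reported here by name. Full values were given for genes at or above the median fold enrichment of all marked genes and for those marked only at an alternative TSS, distances for unmarked genes, the unmarked genes of the other lists of glutamate and GABA transmission where there were 5 or fewer, and promoter sequences for the highest and lowest CpG ratios. Unmarked marker genes were counted but not named. Other genes of the lists, the motif examples and the second Grin2d start were picked after their values were seen. Of 1000 simulated TSSs, 1000 received the right call. Sequences were read with samtools 1.23.1 and pysam 0.24.0, tables with pandas 2.3.3 and NumPy 2.4.6, and figures drawn with matplotlib 3.10.9, in Python 3.11.15. RNA-seq and knockout data of the study were not analysed here.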

Additional observations from a re-analysis of the deposited data

How the results depend on the processing

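Each antibody has 1 library, so no call could be checked by leaving a replicate out. No paired analysis was possible because each group has 1 library and no test was run. The count of receptor genes with H3K4me3 stayed between 36 and 41 of 46 with the window at 500 or 2000 bp, with the summit in place of any base (which dropped Gria2), at the gene 5′ end alone, with protein-coding transcripts alone, with a −log10 q of 10 or more (which dropped Grin3b), without TSSs shared with another gene (which dropped Gabra4 and Grik5), without Grid2ip, and with a peak anywhere inside the gene or within 5 kb upstream (which added Grin2c). The share of all protein-coding genes under these settings ran from 52.3% (without shared TSSs) to 65.4% (inside the gene or within 5 kb upstream). When only peaks at or above the list's median fold enrichment were counted, the count of receptor genes fell to 16 (34.8%, Wilson 95% interval 22.7 to 49.2%). The 45.1% of all protein-coding genes lies inside that interval, so the excess over all genes was seen only with weaker peaks included. The count of other genes of the pathway fell to 34 of 63 (54.0%). The NF-Y-ChIP count changed only when the whole gene and 5 kb upstream were searched, to 1. The median percentile of fold enrichment stayed between 19.1 and 21.5, and was 22.8 when −log10 q was ranked instead. That of width stayed between 45.5 and 58.5. The difference in CpG ratio between marked and unmarked receptor genes was 0.32, and 0.23 with 1000 bp to each side, a window that takes in more flanking sequence. The CCAAT count was 15 in place of 32 in the 100 bp upstream alone, a shorter window. The 39 other values were counts within 1.5 times the main count or medians within the 95% interval of the main median, and CpG differences that moved by less than that interval reaches to either side. Depth is unknown, and unmarked genes may hold signal below the peak threshold.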
